A study of Ovis aries with 6 samples.

Results

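Genes that coat lipid droplets, or that release fatty acids from the fat stored in them, were measured in sheep skin with and without wool. The 7 genes were PLIN1, PLIN2, PLIN5, ABHD5, LPL, ADRB3 and ADIG. Their probes were found through the sheep RefSeq mRNA accession attached to each array probe, and every probe of each gene was kept. This gave 12 of the 15008 non-control probes: 2 each for PLIN1, PLIN2, PLIN5, LPL and ADIG, and 1 each for ABHD5 and ADRB3. Full-thickness skin had been taken from 1 ram and 2 ewes of the Aohan fine wool breed, all aged 12 months, untreated and sired by the same father. Each animal gave a wool-bearing sample from the body side and a sample without wool from the groin, so that the comparison was 3 body side against 3 groin samples, each hybridised to a single-colour (Cy3) Agilent sheep array of its own. The title of the series places the comparison in the context of wool in its growth phase. A whole-skin sample mixes follicle, gland, dermis, vessel, muscle and fat, and in such bulk RNA fewer cells of a type and less RNA per cell cannot be told apart.

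Fat is stored in cells as droplets of triglyceride under a shell of perilipin proteins. Perilipin 1 (PLIN1) is the coat of fat cells and holds the lipase co-activator ABHD5 at rest; perilipin 2 (PLIN2) is found on droplets in most cell types, sebaceous gland cells among them, and perilipin 5 (PLIN5) mainly in oxidative tissues such as muscle. When catecholamines act on the beta-3 adrenergic receptor (ADRB3), protein kinase A phosphorylates PLIN1, ABHD5 is set free and activates the triglyceride lipase of the droplet. Lipoprotein lipase (LPL) works outside the cell, on the vessel wall, and delivers fatty acids from circulating lipoproteins to fat and muscle. Adipogenin (ADIG) is a small membrane protein made during fat cell formation.

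The groin arrays came from 1 scan and the body side arrays from another, so every difference given here is one of site and of scan, which cannot be told apart. The groin arrays were brighter as a whole, with a 75th percentile of the signal from 3677 to 4401 units against 1103 to 2048 units on the body side arrays, 2.98-fold higher (two-sided p = 0.1 in an exact permutation test, the lowest value open to 3 arrays per site). Levels are therefore given on a log2 scale on which 0 is the 75th percentile of each array, and a site difference is the body side mean minus the groin mean on that scale. Of 13278 probes tested with limma, 69.9% passed the threshold (Benjamini-Hochberg adjusted p under 0.05), 37% as higher and 32.8% as lower on the body side. Higher calls were 53.0% of all calls, but 68.6% with normexp background correction, 68.5% with median centring, 39.8% with the percentile taken over probes detected on all arrays, and 1.98% without any scaling. The 8 wool follicle genes listed (KRT35, V15, K38, KRT25, KRT27, KRTAP5.4, KRTAP4.3 and PADI3) were all higher on the body side under each of 8 scalings and background corrections. They were chosen with earlier results of these data known, so they are no independent check of the scaling. The sum of their linear levels lay between 589 and 1020 times the 75th percentile on the body side against 72.5 to 88.3 in the groin.

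PLIN2 was much lower in wool-bearing skin than in the groin. On probe A_70_P051346 the processed signal was 33194, 45068 and 41223 units on groin arrays 1, 2 and 3, and 2058, 5588 and 2396 units on body side arrays 1, 2 and 3. After scaling, the groin levels were 3.17, 3.43 and 3.23 and the body side levels 0.90, 1.45 and 1.08, so that every groin array lay above every body side array. The mean was 3.28 ± 0.14 in the groin and 1.14 ± 0.28 on the body side (SD, n = 3 each), a site difference of -2.13 ± 0.19 SE, or 4.39-fold higher in the groin (limma adjusted p = 5.87e-05). The second probe, A_70_P051347, gave nearly the same value from a dimmer spot, with levels of 2.13, 2.28 and 2.11 in the groin and -0.17, 0.28 and -0.03 on the body side. Its site difference was -2.14 ± 0.18 SE, 4.42-fold higher in the groin (adjusted p = 4.19e-05). Within each array the gap between these PLIN2 probes moved with site by 0.0094 on the log2 scale, less than the spread between arrays of 0.054 (SD). It moved by more than that spread with quantile normalization (-0.30), cyclic loess (-0.28), the deposited log2 values (-0.19) and normexp (-0.14).

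The fall of PLIN2 was also large beside other probes. Of all tested probes, 10.1% differed by more than A_70_P051346, and slightly fewer by more than A_70_P051347. Probes as bright as these tended the other way, with a median site difference of 0.68 in the group of 1328 probes of like brightness that holds them (1 of 10 such groups), where 1.51% and 1.43% of probes had lower values than the respective PLIN2 probes. Both PLIN2 probes kept direction and call in all 20 alternatives, from -1.68 on A_70_P051346 with median centring to -3.72 on A_70_P051347 without scaling, and the highest adjusted p among these was 0.00225.

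**Figure D1:**
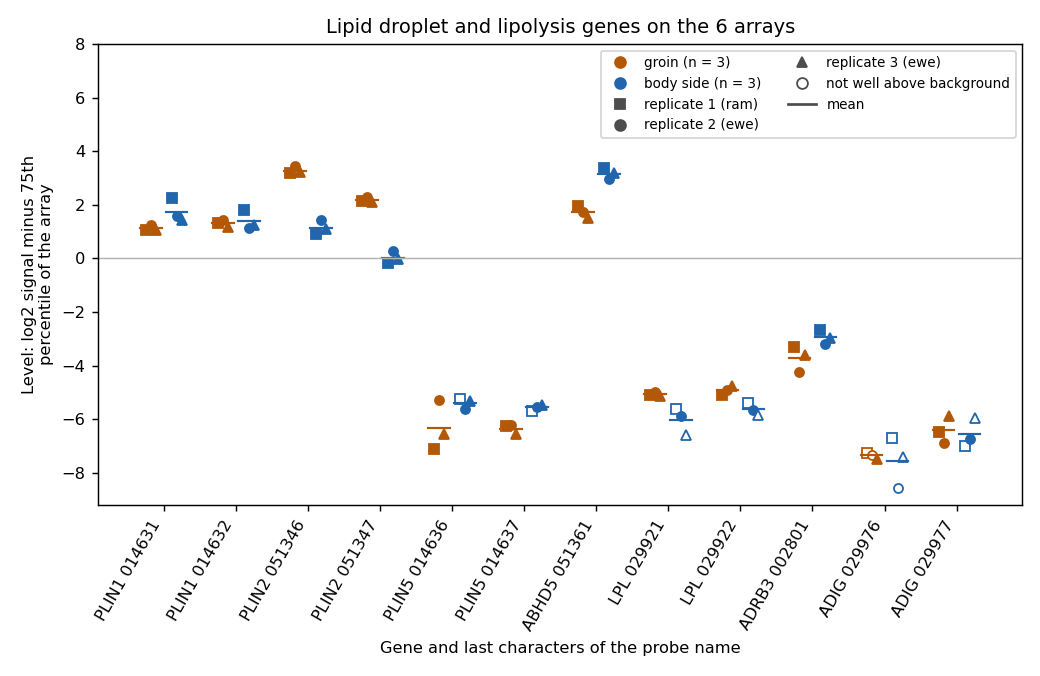
Level of each probe of the 7 genes (y axis, log2, with 0 at the 75th percentile of each array) on the 3 groin and 3 body side arrays; points are arrays, short lines are means, and open points were not well above background. The PLIN2 arrays of the 2 sites are widely apart, with groin means of 3.28 and 2.17 against 1.14 and 0.03, while PLIN5, LPL and ADIG hold the open points, most of them on the body side.

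PLIN1, the perilipin of fat cells, did not share this fall. Probe A_70_P014631 read 1.07, 1.24 and 1.05 in the groin and 2.24, 1.57 and 1.42 on the body side, so that the groups did not overlap and the ram's body side sample was the highest. The site difference was 0.62 ± 0.23 SE, 1.54-fold higher on the body side (adjusted p = 0.0408). That call was lost with quantile normalization (0.13), cyclic loess (0.07), the deposited log2 values (0.12) and the percentile over probes detected on all arrays (0.29), and the direction turned without scaling (-0.95). It was also lost without any 1 of the groin arrays (0.59 to 0.69), without body side replicate 1 (0.37), without replicate 1, 2 or 3 at both sites (0.35, 0.77 and 0.75), and without a filter, where the difference itself stays the same. The other PLIN1 probe, A_70_P014632, read 1.33, 1.42 and 1.18 in the groin and 1.80, 1.14 and 1.24 on the body side, and the groups overlapped. Its site difference was 0.09 ± 0.21 SE (adjusted p = 0.730), with a 95% interval from -0.40 to 0.57.

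The PLIN1 probes thus disagreed about the site. The gap between them, A_70_P014631 minus A_70_P014632, was 0.35 ± 0.15 on body side arrays and -0.19 ± 0.07 on groin arrays (SD, n = 3 each) and did not overlap (two-sided exact permutation p = 0.1, the lowest possible). This gap of 0.54 does not depend on scaling by a single value per array. The PLIN1 probes fall in the same group of like brightness, whose median site difference was 0.68, slightly above the higher of the PLIN1 values. Which transcript stretch each probe reads is not given in the sources used here.

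PLIN5 was dim at both sites. Its probe A_70_P014637 gave signals of 47.9, 55.5 and 46.9 units in the groin and 21.5, 44.4 and 25.6 units on the body side, where the first of these was not well above background. The levels were -6.26, -6.23 and -6.55 in the groin and -5.68, -5.53 and -5.46 on the body side, without overlap, and the site difference was 0.79 ± 0.17 SE, 1.73-fold higher on the body side (adjusted p = 0.00331). The direction rests on the scaling, since the unscaled difference was -0.78, and the call was lost without replicate 3 at both sites (0.64). The dimmest probe well above background stood at -5.39 on body side array 1, above the PLIN5 level there, at -5.68 on array 3, just below it, and at -7.10 on array 2, well below it. Neither PLIN5 probe was kept by the filter on all 6 arrays. On A_70_P014636 the groin arrays spread from -7.10 to -5.29 and overlapped the body side (-5.61 to -5.23). Its difference of 0.93 ± 0.41 SE did not pass (adjusted p = 0.0720), but it passed with normexp (1.36) and with median centring (1.38), and at 1.44 without groin replicate 2, the brightest of the groin arrays on this probe.

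ABHD5, the co-activator that PLIN1 holds on the droplet, was higher in wool-bearing skin relative to the rest of the array. Its probe A_70_P051361 had levels of 1.96, 1.74 and 1.50 in the groin and 3.38, 2.96 and 3.17 on the body side, with a wide gap between the sites. The means were 1.73 ± 0.23 and 3.17 ± 0.21 (SD, n = 3 each), a difference of 1.43 ± 0.19 SE or 2.70-fold (adjusted p = 3.34e-04). The processed signal itself was nearly level, at 14262, 13953 and 12465 units in the groin and 11454, 15931 and 10164 on the body side, and its unscaled difference was -0.14. ABHD5 therefore kept its brightness on arrays that were dimmer as a whole. In the brightest of the 10 groups, where it falls, the median site difference was 1.14, and 67.2% of those probes had a lower value than ABHD5. With quantile normalization the difference was 0.64 and with cyclic loess 0.64, both past the threshold. Relative to the median of all tested probes it was above that median in all 21 settings, main included, by 0.57 to 1.44. Settings that change only the single scaling value of an array, or only the variance model, cannot move this value. It read 1.33 in each of them, so the number of settings overstates the check.

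**Figure D2:**
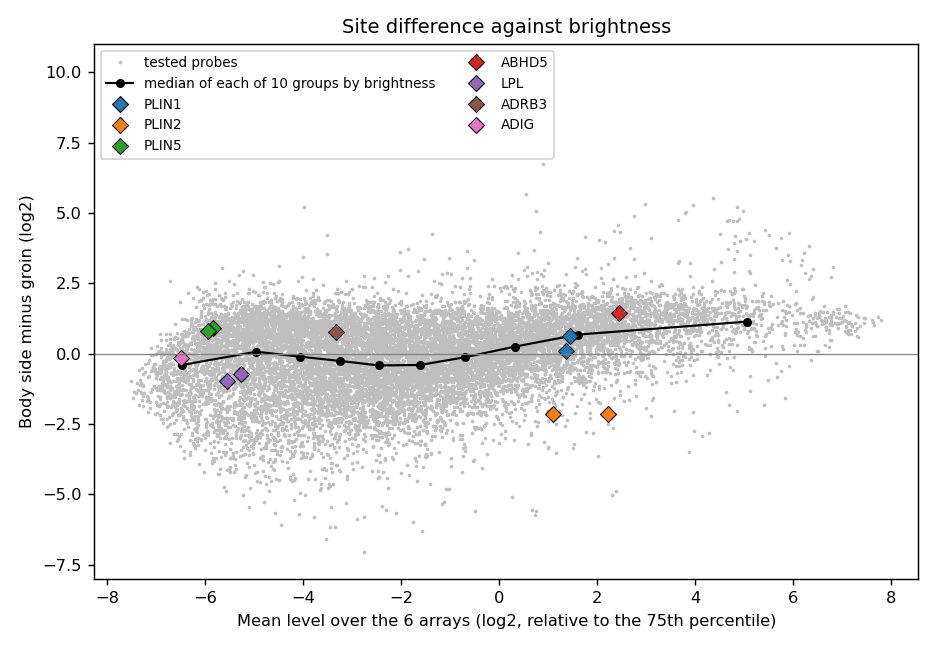
Site difference (y axis, body side minus groin, log2) against the mean level over the 6 arrays (x axis, log2) for 13278 tested probes in grey, with the medians of 10 groups of equal size by brightness as a black line and the probes of the 7 genes as diamonds. The line reaches 1.14 in the brightest group. PLIN1 probe A_70_P014631 lies near it, ABHD5 above it, PLIN1 probe A_70_P014632 below it and the PLIN2 probes far below it.

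LPL, the lipase that draws fatty acids from the blood, was measured in the groin but on only 1 of the 3 body side arrays. Both of its probes entered the test through the groin, the site where they read higher, so that a lower body side value was built into their selection, and neither was kept by the filter on all 6 arrays. Probe A_70_P029922 gave 109, 139 and 163 units in the groin but 26.0, 41.2 and 20.0 on the body side, where the second array alone was well above background. The levels were -5.08, -4.91 and -4.76 against -5.41, -5.64 and -5.82, without overlap, and the fitted site difference was -0.71 ± 0.18 SE (adjusted p = 0.00798), which is a difference from values mostly not above background. The second probe, A_70_P029921, had levels from -5.13 to -4.98 in the groin and from -6.60 to -5.61 on the body side, where again only array 2 was well above background, and its fitted difference was -0.97 ± 0.26 SE (adjusted p = 0.00912). The direction did not survive normexp background correction, under which the probes read 0.51 and 0.61, the latter past the threshold as higher on the body side. The calls on both were lost with median centring (-0.25 and -0.51), with quantile normalization (-0.52 and -0.75), and without replicate 3 at both sites (-0.53 and -0.72). The call on A_70_P029921 was also lost without replicate 2 at both sites (-0.999).

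ADRB3, the receptor that starts lipolysis in fat cells, was above background on all 6 arrays. Its probe A_70_P002801 read 369, 223 and 364 units in the groin and 175, 222 and 145 on the body side. The levels were -3.32, -4.22 and -3.59 in the groin and -2.66, -3.21 and -2.96 on the body side; the sites did not overlap, but the groin ram sample (-3.32) lay close to the lowest body side sample (-3.21). The site difference was 0.77 ± 0.26 SE, 1.70-fold higher on the body side (adjusted p = 0.0287). It was lost with the percentile over probes detected on all arrays (0.43) and turned to -0.81 without scaling. It was also lost without groin replicate 2, the lowest of the groin samples (0.51), without groin replicate 3 (0.83), without body side replicate 1 (0.62), without body side replicate 3 (0.78), and without replicate 3 at both sites (0.84).

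ADIG, the gene of fat cell formation, showed no site difference that passed. Probe A_70_P029977 had levels of -6.48, -6.89 and -5.86 in the groin and -7.00, -6.72 and -5.97 on the body side, with 1 of the 3 body side arrays well above background. The difference was -0.15 ± 0.33 SE, with a 95% interval from -0.92 to 0.61 (adjusted p = 0.697), and it was 1.09 and past the threshold with normexp. The other probe, A_70_P029976, was well above background on groin array 3 alone, at 24.6 units, and was not tested. Its body side signals of 10.6, 5.38 and 6.70 units were not well above background.

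Over the 7 genes, 8 of the 11 tested probes passed the threshold, 4 higher and 4 lower on the body side. That share, 72.7%, is close to the 69.9% of all tested probes, so the count is near the background of the array. Of the 8, the LPL probes and PLIN5 A_70_P014637 were not above background on every array. For 8 of the 11 probes, also 72.7%, the sites did not overlap, beside 75.2% of all tested probes. The median site difference of the 11 probes was 0.09, beside 0.10 for all tested probes. The count fell to 5 with quantile normalization, with the deposited log2 values and with a filter on all 6 arrays (6 member probes tested), and to 3 without replicate 3 at both sites.

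**Figure D3:**
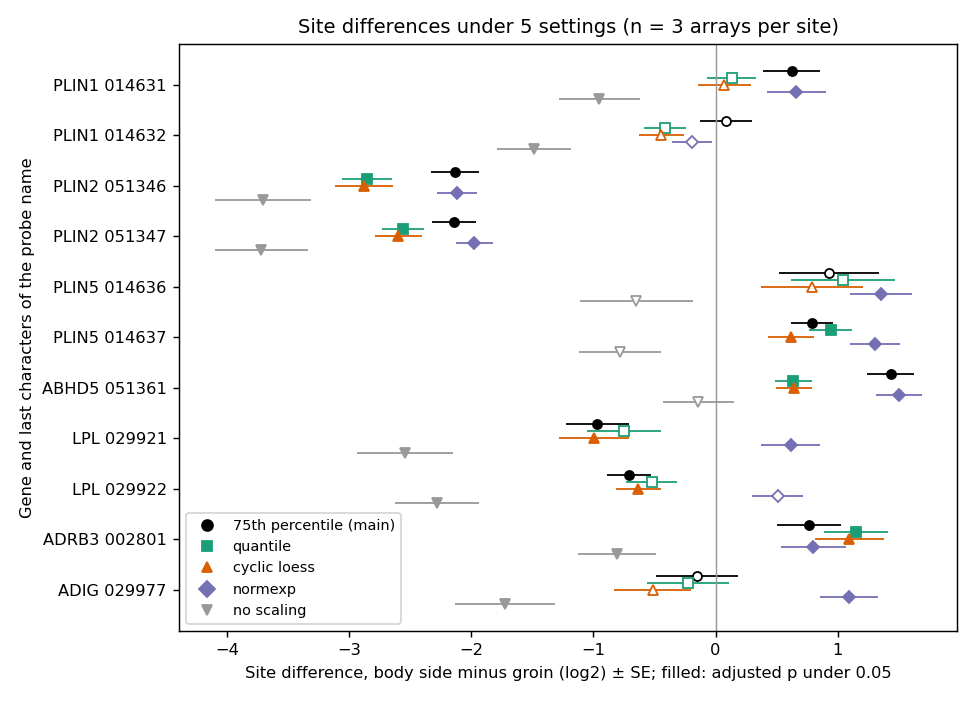
Site difference (x axis, body side minus groin, log2, with SE bars) of the 11 tested probes (y axis) under the main scaling, quantile normalization, cyclic loess, normexp background correction and no scaling; filled points have an adjusted p under 0.05. The PLIN2 probes are below -1.9 in all 5 settings, ABHD5 turns only without scaling, and LPL and ADIG change sign with normexp.

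Differences between genes on the same array do not depend on a scaling by one value per array, and the 7 genes differed in how far, and which way, they stood from one another at the 2 sites. With the brightest probe of each gene, PLIN2 minus ABHD5 was 1.22, 1.69 and 1.73 on groin arrays 1, 2 and 3 and -2.48, -1.51 and -2.08 on the body side arrays. The RNA signal of PLIN2 relative to that of ABHD5 was thus 11.9-fold lower on the body side. This shift of -3.57 on the log2 scale was the largest in size of the 21 pairs. It is not corrected for brightness: the median site difference of probes of like brightness was 0.68 for PLIN2 and 1.14 for ABHD5. PLIN1 minus PLIN2 was -2.11, -2.19 and -2.18 in the groin and 1.34, 0.12 and 0.34 on the body side, a shift of 2.76 or 6.77-fold toward PLIN1. PLIN1 against ABHD5 shifted by -0.81 (-0.51 with quantile normalization). Of the 21 pairs of the 7 genes, 13 did not overlap between sites, beside 72.3% of all 96141 pairs of named genes, so the count is no result about these genes. In 8 of the 13 a gene was not well above background on every array; of the 6 pairs of PLIN1, PLIN2, ABHD5 and ADRB3, which were, 5 did not overlap, beside 72.5% of such pairs of named genes. Each of the 13 had a two-sided exact permutation p = 0.1, the lowest possible, and 0.162 after adjustment over the 21 pairs. The shifts of PLIN2 against ABHD5 and against PLIN1 lay between -3.83 and -3.34 and between 2.39 and 3.02 in the 19 alternatives run for them, quantile normalization and normexp included. Alternatives with another single scaling value per array, another filter or another variance model cannot move these shifts. The ranges therefore rest on those that change values within an array or leave arrays out.

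**Figure D4:**
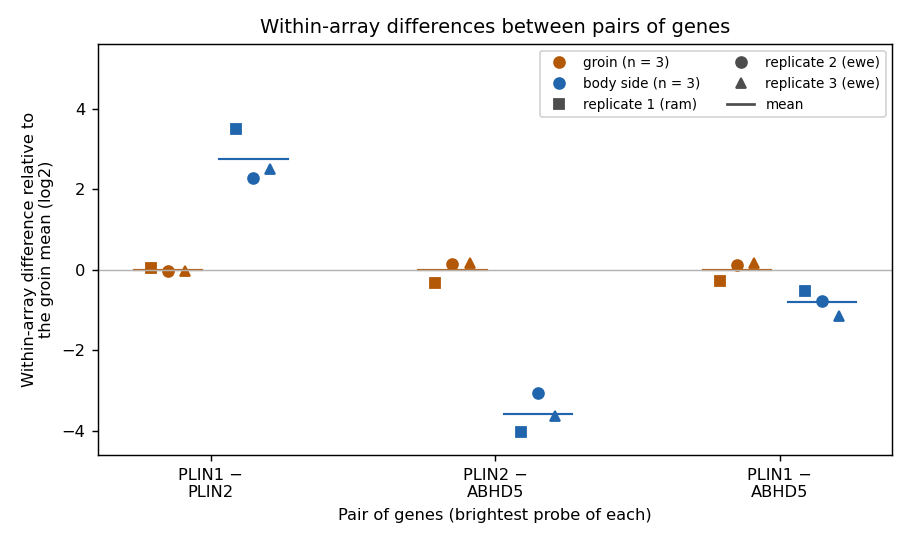
Within-array difference between the brightest probes of 3 pairs of genes (y axis, log2, with the groin mean of each pair set to 0) on each of the 3 groin and 3 body side arrays; short lines are means. The body side arrays lie 3.57 below the groin mean for PLIN2 minus ABHD5 and 2.76 above it for PLIN1 minus PLIN2, with no overlap of the sites.

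Few other genes of the pathway had a named probe: of 79 genes in 5 lists of droplet, lipase, signalling, fatty acid uptake and oxidation genes, 8 could be measured, of which 3 were higher on the body side, none lower, and 5 did not pass. Among 442 named genes tested, 71% passed. CAV1, the caveolin of fat cell and vessel membranes and the 1 measured gene of the droplet list, was 2.90-fold higher on the body side (1.54 ± 0.24 SE, adjusted p = 6.60e-04). PRKACA, the catalytic subunit of the protein kinase A that phosphorylates PLIN1, was 2.72-fold higher (1.44 ± 0.23 SE, adjusted p = 7.49e-04), and its second probe also passed, at 1.05. In the same signalling list PRKAR1A and GHR did not pass. CPT1B, the muscle form of the transferase that takes fatty acids into mitochondria, was 1.80-fold higher (0.85 ± 0.17 SE, adjusted p = 0.00235), although its dimmer probe did not pass (0.27) and CPT1A did not either. CAV1, PRKACA and CPT1B turned without scaling, to -0.04, -0.13 and -0.73. LIPA, the lysosomal lipase, differed by 0.18 ± 0.18 SE and FABP5, the fatty acid carrier of skin, by 0.29 ± 0.20 SE, neither past the threshold, and FABP5 passed as lower on the body side with quantile normalization (-1.04) and cyclic loess (-1.27).

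Markers of the cell types that could carry these genes moved with site as well. Of the fat cell markers, PPARG, the master factor of fat cell formation, and the leptin receptor LEPR were measured. PPARG differed by 0.12 ± 0.26 SE (adjusted p = 0.694). The brightest LEPR probe read well above background in the groin only and was at least 3.44-fold higher there, a call lost with normexp (-0.36). This probe entered the test through the groin, so that a lower body side value was built into its selection. Among the dimmer tested LEPR probes, A_70_P039557 was also called lower on the body side, with the same lower limit at only 1.24-fold. A_70_P056811 did not pass (-0.67, limma adjusted p = 0.0727), and its sites overlapped. The summed linear level of PPARG and LEPR by brightest probe, 4.13 to 5.75 in the groin and 3.66 to 6.85 on the body side, is at least 98.0% PPARG on every array. LEPR alone stood at 0.0394 to 0.081 in the groin. Its body side values, 0.00468 to 0.00765, were not well above background on any array. Of 5 measured sebaceous gland genes, SCD, a fatty acid desaturase, and ACLY, which makes acetyl-CoA for lipid synthesis, were lower on the body side, ACACA and DGAT1 higher, and MC5R did not pass. The sum of the sebaceous genes lay between 1.98 and 2.60 in the groin and between 0.829 and 0.895 on the body side. It moved in the same direction as PLIN2, with ACLY as 55.7% to 62.1% of it in the groin and 11.1% to 13.8% on the body side. Without ACLY the sum was 0.835 to 1.15 in the groin and 0.714 to 0.796 on the body side. SCD is part of that remainder, while DGAT1 (0.46) and ACACA (0.77) went against the direction of PLIN2. SCD did not clear background on any body side array and entered the test through the groin, where it read higher. The DGAT1 call (0.46) held in 10 of the 20 alternatives and was lost with the replicate block and in 7 of the 9 leave-outs, and the second DGAT1 probe was called the opposite way, at -0.83.

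Of 6 skeletal muscle genes, 5 were higher on the body side and TNNC2 was lower. Their summed level, 3.52 to 4.70 in the groin and 7.03 to 9.38 on the body side, was at least 95.1% MYL11 on every array, and the other 5 genes together gave 0.141 to 0.178 in the groin and 0.277 to 0.383 on the body side, in the direction of PLIN5. The site difference of MYL11, 1.01, was below the median of 1.14 in its group of like brightness, the brightest of the 10. MB, the myoglobin of oxidative fibres, differed by 1.86 ± 0.31 SE, a call lost without scaling (0.28), and its dimmer probe did not pass (1.04). MYOG differed by 1.27 ± 0.17 SE and turned without scaling (-0.30), as did MYL11 (-0.56) and MYOD1 (-0.93). Of 4 macrophage genes, TLR4 was lower and 3 did not pass by their brightest probe, although the other probe of each was called lower: CD14 at -0.89, TLR2 at -1.74 and ITGAM at -3.02, the last from body side values not above background. The brightest probes gave sums of 0.937 to 1.13 in the groin and 0.521 to 1.09 on the body side. Both endothelial selectins, SELE (-1.50 ± 0.18 SE) and SELP (-0.69 ± 0.16 SE), were lower, with sums of 0.312 to 0.371 in the groin and 0.145 to 0.168 on the body side. The call on SELP was lost with normexp (-0.04). What part any of these cell types has in the differences of the 7 genes was not tested.

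The site difference could be set side by side in the ram and the ewes. For PLIN2 probe A_70_P051346 it was -2.27 in the ram and -2.06 in the ewes, and for ABHD5 1.42 and 1.44. On PLIN1 probe A_70_P014631 it was 1.18 and 0.35. On PLIN5 probe A_70_P014636 it was 1.87 and 0.45, but the ram's body side value there was not well above background. None of the 11 probes passed in the limma interaction test of site and sex, in which 0.113% of all probes tested passed; the smallest adjusted p was 0.574, for PLIN5, and 1 of the 11 was under 0.05 before adjustment. The ram's side of that test rests on 1 array per site.

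The named genes with the most similar profile over the 6 arrays were found by the root mean square distance between profiles after removal of each gene's mean. For PLIN2 they were SLCO2A1, a prostaglandin transporter, at a distance of 0.096 on the log2 scale, and the kinase AKT1, at 0.12. For ABHD5 they were ATOX1, a copper chaperone, at 0.065 and NDUFA12, a subunit of respiratory complex I, at 0.099. CRY1 (0.12) and ASF1A (0.15) were nearest to PLIN1, BGN (0.13) and PHKG2 (0.14) to LPL, and IDH1 (0.15) and ACTB (0.16) to ADRB3. The ACTB probe was well above background on 1 of the 3 body side arrays and the SLCO2A1 probe on 2. PLIN5 and ADIG, the dimmest of the genes, had no neighbour closer than 0.41 (PRD-SPRRII, then MYL11, also 0.41) and 0.30 (ARAF, then MC5R at 0.31). All arrays of a profile share the same 2 scans.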

How the data were processed

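Total RNA of each sample was amplified and labelled with Cy3, per the labels' protocols, and the arrays were read, per the submitters' processing notes, with version 10.5.1.1 of Agilent Feature Extraction. The deposited processed signal is an intensity corrected for background and within-array trends, per the file headers, with no scaling across arrays. A deposited table of the authors gives log2 values with a median of 8.31 on every array, correlating at 0.999 with quantile-normalized log2 signals; how they were offset and background-corrected is not given in the sources used here. Flags were used as deposited.

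Control and outlier-flagged spots (6 to 51 per array) were left out, and no spot was saturated. A probe was tested if a site had all 3 of its arrays well above background, with at least 2 values per site. The fit was limma 3.58.1 (lmFit, eBayes) in R 4.3.3, without a block. Probes were named through RefSeq accessions in the table of assembly ARS-UI_Ramb_v3.0 (734 of 15008 matched); the files name no build, so no coordinates are given, and no probe, promoter or protein sequence was used here. A gene outside the 7 is represented by its brightest tested probe. An "at least" fold sets the brighter site's mean against, per dim array, the higher of the probe's value and the lowest level well above background. Replicates of a site are separate animals, and both sites come from the same 3 animals.

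The genes and lists were chosen with earlier results of these data known. From each list, up to 4 genes past the threshold by smallest adjusted p are given, otherwise 1 with the smallest p, and 2 most similar genes per member. Genes given beyond that were KRT25, KRT27, KRTAP4.3, PADI3, PRKAR1A, GHR, CPT1A, PPARG, MC5R, TNNC2, CD14, TLR2 and ITGAM. These genes, the further probes of listed genes and the within-array pairs of genes were added after their values were seen. Normexp (offset 50) used the median spot signal. The fit was tested on simulated data in which 200 of 13278 probes were changed, a far smaller share than was called here. It recovered 32% of changes of 1 log2 unit and 81% of changes of 2, and 5% of its calls were false.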

Additional observations from a re-analysis of the deposited data

How the results depend on the processing

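The 20 alternatives were 11 changes of processing and 9 leave-outs of arrays. PLIN2 kept its call on both probes in all of them. ABHD5 kept its call in 19 of 20 and read -0.14 without scaling. In each case below the cause was not tested. The median site difference of all tested probes was 0.10. It shifted by -1.57 without scaling, 0.46 with median centring, 0.36 with normexp and -0.34 with the percentile over probes detected on all arrays. The shift was -0.12 with cyclic loess, 0.15 without a filter and 0.22 with a filter on all 6 arrays. Relative to that median, the probes of PLIN2 stayed below 0 in every setting that tested them. Those of ABHD5, ADRB3 and PLIN5 and the PLIN1 probe A_70_P014631 stayed above 0, the last by only 0.059 with the deposited log2 values. Settings that change only the single scaling value of an array, or only the variance model, cannot move these relative values.

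Without scaling PLIN1 read -0.95 (A_70_P014631) and -1.49 (A_70_P014632), PLIN5 -0.65 (A_70_P014636) and -0.78 (A_70_P014637), ADRB3 -0.81 and ADIG -1.73, the last now past the threshold. Among other genes CAV1 read -0.039, LIPA -1.39, PRKACA -0.13, FABP5 -1.29, CPT1B -0.73, ACACA -0.81, DGAT1 -1.11, MYOG -0.30, MYL11 -0.56 and MYOD1 -0.93. With normexp PLIN1 A_70_P014632 read -0.19, PLIN5 A_70_P014636 1.36, LPL 0.61 (A_70_P029921) and 0.51 (A_70_P029922) and ADIG 1.09. The within-array gap was then 0.86 for the probes of PLIN1, -0.14 for PLIN2 and -0.10 for LPL, and the ram minus the ewes turned to 0.25 for PLIN5 A_70_P014637, 0.18 for ABHD5 and 0.56 for ADIG.

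With quantile normalization PLIN1 read 0.13 and -0.41, LPL -0.75 and -0.52, LIPA -0.30 and FABP5 -1.04; the gap between the PLIN2 probes was -0.30 and PLIN1 minus ABHD5 -0.51, and 5 member probes passed. The deposited log2 values gave 0.12 and -0.44 for PLIN1, -0.72 and -0.51 for LPL, -0.33 for LIPA and -1.00045 for FABP5, with -0.19 and -0.53 for the same within-array values and 5 member probes past the threshold. Cyclic loess gave 0.072 and -0.44 for PLIN1, -0.35 for LIPA, -1.27 for FABP5 and a PLIN2 gap of -0.28. Median centring gave 1.38 for PLIN5 A_70_P014636, -0.51 and -0.25 for LPL and 0.30 for ADIG. The percentile over probes detected on all arrays gave 0.29 and -0.25 for PLIN1, 0.43 for ADRB3, -0.15 for LIPA and -0.047 for FABP5. Without a filter PLIN1 A_70_P014631 kept 0.62 but lost its call (adjusted p = 0.0556, in a range from 0.00333 to 0.787), and with a filter on all 6 arrays 5 member probes passed of 6 tested.

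In the leave-outs the count of member probes past the threshold ran from 3 to 8, PLIN1 from 0.35 to 0.79 (A_70_P014631) and from -0.12 to 0.27 (A_70_P014632), PLIN5 from 0.45 to 1.55 (A_70_P014636) and from 0.64 to 0.90 (A_70_P014637), LPL from -1.19 to -0.68 (A_70_P029921) and from -0.90 to -0.53 (A_70_P029922), ADRB3 from 0.51 to 0.97, ADIG from -0.45 to 0.12 and PLIN1 minus ABHD5 from -1.09 to -0.57. Same-numbered arrays share the ram as number 1, but the labels do not tie the ewes across sites, so number 2 or 3 was not read as 1 ewe at both sites. Deviations from the site means correlated across probes at 0.159, 0.089 and -0.088 for arrays numbered 1, 2 and 3. Body side array 2 and groin array 3 reached 0.164, above the 0.159 of the ram, so these correlations cannot settle the pairing. With a replicate block 8 member probes and 9211 of all tested probes passed, against 8 and 9279 without it; it ended the call on DGAT1 (0.46) and none on the 7 genes. Nearness to background on the body side arrays limits PLIN5, LPL and ADIG.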
